A study of Danio rerio with 18 samples.

Results

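In RNA of zebrafish embryos, 597 cytosines were listed as carrying 5-methylcytosine (m5C) at every one of the 5 stages 0, 2, 4, 6 and 8 hours post fertilisation (hpf). They were chosen by being present in all 5 lists of called sites, and thus by their level and coverage at those stages, and they made up 6.60% of the 9047 distinct sites listed at any stage. Polyadenylated RNA from pools of wild-type AB embryos and larvae had been sequenced after bisulfite conversion at 9 stages up to 48 hpf. There were 18 libraries, 2 for each stage, and no treatment or mutant was included. Bisulfite converts unmethylated cytosine, which is then read as T, and leaves m5C to be read as C. The m5C level of a site is the share of C among its C and T reads, and coverage is the number of C and T reads together. The deposited lists combine both libraries of a stage, which leaves every value here without a replicate spread, and a site enters a list only with at least 20 reads and a level of at least 10%. The 95% intervals given cover only counting error for single sites, or the spread among sites for medians, and reads may include PCR duplicates. Coverage was not scaled for sequencing depth, and in whole embryos fewer cells of a type and less RNA per cell cannot be told apart.

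m5C is placed on mRNA by methyltransferases of the NSUN family, mainly NSUN2 and NSUN6. The egg supplies the embryo with maternal mRNA, which serves early cleavage while the embryo's own genome is silent. In the maternal-to-zygotic transition much of the maternal mRNA is cleared and zygotic transcripts take over, and in zebrafish this falls between the early cleavage stages and gastrulation. Sites that stay listed from the egg into gastrulation span that handover.

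The sites lay in 507 genes, which were 9.88% of the 5129 genes with any listed site. A single such site was found in 430 genes, 64 genes had 2, and 13 genes had 3. All 25 chromosomes carried some, with 10 to 36 per chromosome, while 5 sites were on unplaced scaffolds and 1 was on the mitochondrial genome (Zv9 assembly). The strands were nearly even, with 303 sites on the plus and 294 on the minus strand. Of the 402 genes with an annotated biotype, all were protein coding. In 171 genes, the site was the only one listed at any of the 9 stages. Position within the exon, coding region or untranslated region, and the sequence around the sites, were not analysed here.

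By the rule the same 597 sites are in every list from 0 to 8 hpf, so their share of a list depends only on its length. The 5 lists held 4695, 6205, 5889, 2685 and 1252 sites. The members were thus 12.7, 9.62, 10.1, 22.2 and 47.7% of them, which is not a result about the members. Of 1715 sites in all lists of 0 to 6 hpf, 34.8% were also listed at 8 hpf and 1118 were not. Sites missing from 1 other list were fewer: 117 lacked the list of 0 hpf, 7 that of 2 hpf, 5 that of 4 hpf and 103 that of 6 hpf.

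The members closest to the minima show how narrow the listing can be. The lowest coverage was 20 reads, in lrit3a at 8 hpf (ENSDARG00000055463, chromosome 14, position 37550122, minus strand) and in synrg at 0 hpf (ENSDARG00000073926, chromosome 15, position 14942839, minus strand). Among the lowest levels was 10.0%, in APH1A at 8 hpf (ENSDARG00000052668, chromosome 10, position 8385791, plus strand). lrit3a encodes a leucine-rich repeat membrane protein, synrg an adaptor-binding protein of vesicle transport and APH1A a subunit of gamma-secretase. In all, 24 members had fewer than 30 reads at some stage, and 58 came within 1 percentage point of the minimum level, 47 of them at 8 hpf.

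Levels hardly differed over the first 4 hours and lower thereafter. From 0 to 4 hpf the medians were 37.2% (35.5 to 40.6), 38.7% (35.4 to 41.1) and 37.0% (34.6 to 39.4). The median was 32.2% (29.98 to 33.6) at 6 hpf and 18.2% (17.3 to 19.0) at 8 hpf. Since listing at these stages chose the sites, these values are a description and were not tested. The middle 50% of sites spanned 24.1 to 60.4% at 0 hpf and 13.2 to 27.4% at 8 hpf. Levels of at least 50% were seen at 214, 205, 205, 141 and 41 sites at 0, 2, 4, 6 and 8 hpf.

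**Figure D1:**
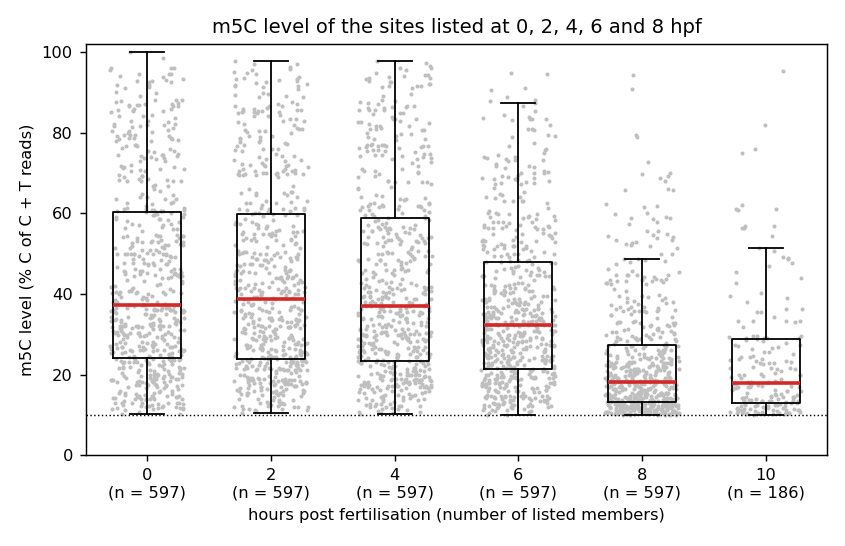
m5C level in percent against the stage in hours post fertilisation. Grey points are the sites, boxes give the quartiles with the median in red, whiskers reach to the last point within 1.5 box lengths, and the dotted line is the 10% minimum. The 597 sites had medians of 37.2, 38.7, 37.0, 32.2 and 18.2% from 0 to 8 hpf, and the 186 that were also listed at 10 hpf had a median of 18.0% there.

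These sites had higher median levels than the lists as a whole, most of all early. The choice of sites favours such a difference, since members had to pass the minimum level and coverage in every list from 0 to 8 hpf. The comparisons of level and coverage in this paragraph are therefore a description only. They cannot show that the members differ beyond what the rule selects, and no conclusion is drawn from them. The medians over all listed sites were 19.4, 19.3, 19.2, 18.9 and 16.5% from 0 to 8 hpf. The 1118 sites that dropped out at 8 hpf had medians of 26.8, 26.5, 26.0 and 17.7% from 0 to 6 hpf, below the members' medians at each of these stages. Their coverage was also lower, with medians of 176.5, 361.5, 394 and 186 reads against the members' 229, 425, 490 and 213. At 8 hpf the members had a median of 165 reads, and the other 655 sites of that list had a median level of 15.3% on 73 reads.

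The order of the sites by level was kept until 6 hpf and much less so afterwards. Spearman's rho was 0.922 between 2 and 0 hpf, 0.953 between 4 and 2 hpf, and 0.916 between 6 and 4 hpf, but 0.453 between 8 and 6 hpf. These correlations run over 597 sites that share libraries and, in part, genes, and are given as a description. At 8 hpf the levels also spanned less, close to the 10% minimum, with quartiles of 13.2 and 27.4% against 21.4 and 47.9% at 6 hpf. The part of this narrower span in the lower rho was not tested. Site by site, the median difference was -0.01 percentage points at 2 hpf relative to 0 hpf, with 299 sites lower and 298 higher. It was -4.62 points at 6 hpf relative to 4 hpf and -10.6 points at 8 hpf relative to 6 hpf. At 8 hpf relative to 4 hpf it was -14.9 points (-16.5 to -12.4), with 503 sites lower and 94 higher. The spread was wide, from -85.6 to 30.1 points. Of the 205 sites at 50% or more at 4 hpf, 32 were still there at 8 hpf and 87 were below 20%.

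Levels at 0 and 4 hpf mostly lay close together, also at sites with much higher coverage at 4 hpf. By the rule, members passed the minimum level and coverage at both stages, so sites that left either list are not included. The values are therefore a description, and steadiness was not tested. At 130 sites, coverage at 4 hpf was at least 5-fold that at 0 hpf. Their median absolute difference in level was 4.84 points, somewhat above the 3.91 points over all members, which include them. An exception, named after its values were seen, was sec22ba, which encodes a SNARE protein of transport between endoplasmic reticulum and Golgi (ENSDARG00000030108, chromosome 2, position 9763503, plus strand). Its levels from 0 to 8 hpf were 18.6, 65.2, 73.4, 58.0 and 18.5%, on 113, 155, 267, 88 and 65 reads. The difference of 54.8 points between 4 and 0 hpf was the largest gain over those hours among the 597 sites.

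The most deeply covered sites differed among themselves in how level and reads moved. h1m, the linker histone of eggs and early embryos (ENSDARG00000040344, unplaced scaffold Zv9_NA660, position 16595, minus strand), had levels of 49.8, 47.0, 45.2, 39.6 and 52.7% from 0 to 8 hpf. Its coverage over the same stages was 109503, 52030, 31447, 11087 and 2691 reads. Reads became scarce at this site while the methylated share at 8 hpf was slightly above that at 0 hpf. cldnd, a claudin of the tight junction family that is deposited in the egg (ENSDARG00000006580, chromosome 21, position 25157670, plus strand), showed the same combination. Its levels were 16.7, 18.2, 17.1, 16.2 and 18.3% on 89148, 19421, 6744, 635 and 427 reads. rcc1, the nucleotide exchange factor of the Ran GTPase (ENSDARG00000037158, chromosome 16, position 36606741, minus strand), was at 76.0, 76.0, 74.5, 68.5 and 53.9% on 25607, 29948, 30696, 36445 and 5863 reads. Here level and coverage were both lower at 8 hpf than at 6 hpf.

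The other sites of highest coverage were lower at 8 hpf than at 4 hpf as well. pabpc1a, the cytoplasmic poly(A)-binding protein (ENSDARG00000017219, chromosome 16, position 58361351, plus strand), was at 32.9, 30.4, 25.1, 13.3 and 10.0% on 23652, 16280, 22639, 53843 and 32512 reads. taf15, an RNA-binding protein of the FET family (ENSDARG00000070019, chromosome 15, position 1830796, minus strand), was at 19.9, 21.2, 18.6, 16.0 and 11.96% on 13222 to 29950 reads. nme2b.2, a nucleoside diphosphate kinase with close paralogs between which reads may be shared (ENSDARG00000076892, chromosome 19, position 49852842, minus strand), was at 18.9, 21.7, 20.3, 19.8 and 12.1%, and its coverage was 55411 reads at 0 hpf and 6219 at 8 hpf. In pabpc1a the lowest levels came with the highest coverage, in nme2b.2 with the lowest.

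**Figure D2:**
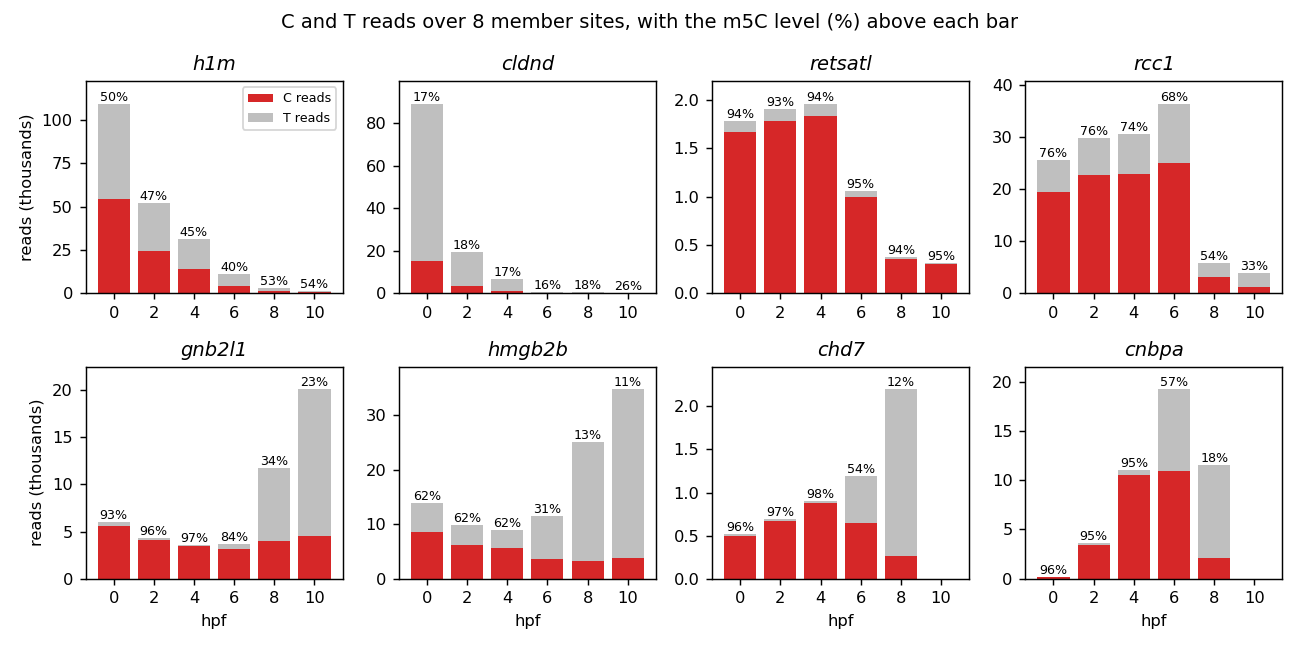
Reads (axis in units of 1000, C reads red, T reads grey, stacked) over 1 site each of 8 genes, against the stage in hours post fertilisation, with the m5C level above each bar. Each panel has its own vertical axis from 0, a stage without a bar has no listed value, and reads are not scaled for depth. In h1m, cldnd and retsatl the bars at 8 hpf are shorter than at 4 hpf while the level at 8 hpf is not below that at 4 hpf, and in gnb2l1, hmgb2b and chd7 the T reads are many more at 8 hpf than at 4 hpf.

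By the rule, members are at 10% or more at 8 hpf, so only sites with high levels at 4 hpf could show the largest falls. The largest differences at 8 hpf relative to 4 hpf were thus at sites that had been almost fully methylated. Among the 282 members with at least 100 reads at each of the 5 stages, the widest was in chd7, a chromatin remodeller needed for neural crest development (ENSDARG00000075211, chromosome 2, position 21563862, minus strand). Its level was 96.1, 97.0, 97.7, 54.5 and 12.1% on 519, 693, 903, 1189 and 2196 reads. atp5l, a subunit of mitochondrial ATP synthase (ENSDARG00000011841, chromosome 5, position 32340759, plus strand), was at 11.9% of 663 reads at 8 hpf, against 92.1% of 381 reads at 4 hpf. These sites had more reads at the stage where they were less methylated. ylpm1 (ENSDARG00000043680, chromosome 20, position 9369804, minus strand) was at 11.9% of 1406 reads at 8 hpf, against 91.6% of 370 at 4 hpf. chchd4, an oxidoreductase of protein import into mitochondria (ENSDARG00000033376, chromosome 11, position 35897054, plus strand), was at 10.3% of 282 reads, against 88.1% of 370. ddb1, an adaptor of a cullin ubiquitin ligase (ENSDARG00000089106, chromosome 18, position 49809786, plus strand), was at 15.1% of 715 reads at 8 hpf, against 92.5% of 762 at 4 hpf. In chchd4 and ddb1 coverage was thus not higher at 8 hpf. cnbpa, a zinc finger protein that binds nucleic acids (ENSDARG00000045776, chromosome 23, position 4756388, minus strand), was at 96.1, 94.6, 94.8, 56.7 and 18.4% on 203, 3605, 11062, 19202 and 11572 reads. Its level was the same within 2 points at 0, 2 and 4 hpf while its reads were 203 at the first of these stages and 11062 at the last.

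Gains of level between 4 and 8 hpf were smaller and mostly came with fewer reads at 8 hpf than at 4 hpf. Among the members with at least 100 reads at each of the 5 stages, the widest was in ZP2, an egg coat glycoprotein (ENSDARG00000079034, chromosome 7, position 21738481, minus strand), with 14.4, 19.3, 12.3, 23.6 and 32.9% on 140 to 197 reads. CCNO, a cyclin (ENSDARG00000055250, chromosome 18, position 38997749, minus strand), was at 58.6, 47.3, 47.4, 30.8 and 62.2%, with 164 reads at 8 hpf against 1625 at 4 hpf. jam2a, a junctional adhesion molecule (ENSDARG00000058996, chromosome 1, position 477737, plus strand), was at 35.8% of 123 reads at 8 hpf, against 23.2% of 668 at 4 hpf. Of these sites only ZP2 had about the same coverage at both stages. npepl1, an aminopeptidase-like protein (ENSDARG00000012871, chromosome 6, position 49701382, plus strand), was at 23.1% of 1411 reads, against 13.7% of 4474. acsl4l, a long-chain acyl-CoA synthetase (ENSDARG00000010752, chromosome 5, position 25240633, minus strand), was at 25.5% of 106 reads, against 17.7% of 1424. The remaining site, in ENSDARG00000079957 (chromosome 13, position 2104178, minus strand), was at 45.6% of 136 reads, against 35.7% of 4215.

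Level and coverage were both lower at 8 hpf than at 4 hpf at 384 of the 597 sites, and the sites with the higher coverage ratios tended to have the lower level ratios. Spearman's rho between the 2 ratios was -0.37 over 597 sites and -0.36 over the 282 with at least 100 reads throughout, and the ratios share the libraries and their depths. Where coverage at 8 hpf was under 0.125 of that at 4 hpf (86 sites), the median level ratio was 0.809. Where coverage was at least 2-fold (56 sites), it was 0.367. In the 72 sites whose level was under a ratio of 0.25, the median level was 12.8% at 8 hpf against 76.7% at 4 hpf, with a median of 4.12-fold as many T reads at 8 hpf. In the 94 sites at or above their 4 hpf level, coverage had a median ratio of 0.207. Over all members, C reads were fewer at 8 hpf than at 4 hpf in 544 sites, T reads were more in 189, and both held in 138. Both ratios use stages that chose the sites, and the 10% minimum at 8 hpf sets a floor under the level ratio. That floor is lower for sites with higher levels at 4 hpf. The median level at 4 hpf was 30.1% in the 86 sites and 48.0% in the 56 sites. Members also had at least 5 C reads at 8 hpf. The relation is therefore a description, and the part of sequencing depth and of the choice of sites was not tested.

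**Figure D3:**
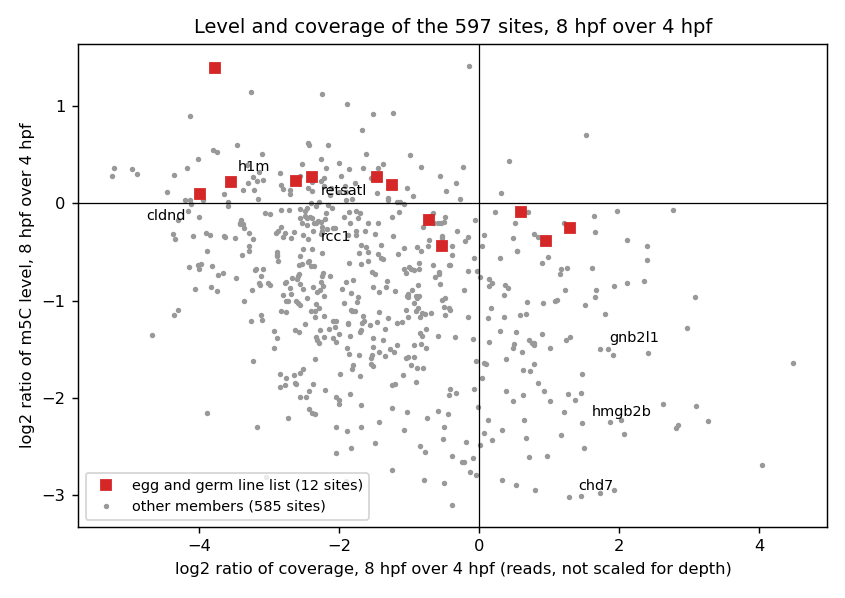
log2 ratio of the m5C level at 8 hpf over 4 hpf (vertical) against the log2 ratio of coverage at the same stages (horizontal), 1 point per site. Red squares are the 12 sites in genes of an egg and germ line list and grey points the other 585 sites. Sites with more reads at 8 hpf lie mostly below 0 on the vertical axis, and the 12 squares lie between level ratios of 0.74 and 2.62.

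Members in genes of an egg and germ line list hardly differed in median level between 8 and 4 hpf. By the rule all of them were at 10% or more at 8 hpf, so sites of these genes that fell below it are not included. The list patterns were trimmed after gene symbols were seen, and the values are a description only. Of 24 genes of this list with any listed site, 11 (45.8%) had a member, beside 9.88% of all listed genes. Over the other lists with members this share ran from 5.19% (cell cycle) to 22.6% (metabolic enzymes), and it was 7.14% in the ribosomal list. Their 12 sites had a median level of 36.1% at 8 hpf and 35.6% at 4 hpf, and a median ratio of 1.10 against 0.57 over all 597. At 7 of the 12 the level at 8 hpf was at or above that at 4 hpf, as it was at 94 of all 597. Coverage was lower at 8 hpf at 9 of the 12 and at 475 of all 597, a similar share. Besides h1m and cldnd, the site of highest coverage was in vasa, the germ line RNA helicase (ENSDARG00000014373, chromosome 10, position 6562456, plus strand), with 44.9, 48.3, 48.4, 38.1 and 35.8% on 454 to 1061 reads. zp3b, an egg coat protein (ENSDARG00000039828, chromosome 2, position 5900722, plus strand), was at 79.5, 73.4, 74.1, 66.3 and 65.8%. zar1, a regulator of maternal mRNA translation (ENSDARG00000019706, chromosome 20, position 23413340, minus strand), was at 21.0, 28.8, 25.7, 28.6 and 31.1%. The widest gain was in tdrd5, of a Tudor protein family of germ cells (ENSDARG00000071450, chromosome 22, position 17494237, plus strand), at 48.7% of only 39 reads at 8 hpf, against 18.6% of 533 reads at 4 hpf. The other members of the group were 2 sites in tdrd7 and 1 each in piwil1, zp3.2, zp3a.2 and zpcx, all with germ line or egg coat roles. Of early zygotic genes on a second list, 1 had a listed site and 0 had a member, and 1 gene is too few for a comparison.

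The few ribosomal sites had the lowest median ratio of the lists with members. That list held 3 members in 2 genes, rps9 and gnb2l1, with a median level ratio of 0.24 and 6.18-fold coverage at 8 hpf over 4 hpf. It also had the highest median level at 4 hpf of these lists, 75.4%, so the 10% minimum left room for a low ratio. gnb2l1, the ribosome-bound scaffold also called RACK1 (ENSDARG00000041619, chromosome 14, position 6916231, plus strand), was at 92.7, 95.9, 96.7, 84.3 and 34.3% on 6002, 4296, 3563, 3685 and 11764 reads. Its C reads numbered 4030 at 8 hpf and 3444 at 4 hpf, while its T reads numbered 7734 and 119. The lower level thus came with no fewer C reads. The 7 sites in 5 genes of translation factors had a median ratio of 0.40, with pabpc1a and eif3ea, a subunit of initiation factor 3, as those of highest coverage. The exceptions in that list were 2 sites at or above their 4 hpf level.

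Most other functional groups lay near or below the ratio of 0.57 over all members. These ratios use levels that chose the sites, and the 10% minimum at 8 hpf bounds them by the level at 4 hpf. Median levels at 4 hpf ran from 22.9% in the cell cycle list to 75.4% in the ribosomal list. The ratios are thus a description, and differences between groups were not tested. The 17 sites in 14 genes of the ubiquitin and proteasome list had a median ratio of 0.36. Among them were ubc, which encodes polyubiquitin (ENSDARG00000067755, chromosome 11, position 21577815, minus strand), with 52.2, 60.7, 56.0, 36.8 and 21.6%, psmb1, a proteasome subunit, and vcp, a segregase ATPase. The 10 chromatin sites in 8 genes also had a ratio of 0.36. The deepest was in hmgb2b, a high mobility group protein (ENSDARG00000053990, chromosome 23, position 45379972, plus strand), with 62.2, 62.5, 62.0, 31.3 and 12.9% on 13891, 9847, 9012, 11471 and 25079 reads. Splicing and RNA-binding genes (6 sites, among them hnrnpk and cpsf2) had a ratio of 0.37, cytoskeletal and motor genes (10 sites, among them kif23 and myh9a) 0.47 and chaperones (7 sites, among them calr, hspa4b and hspd1) 0.48. Vesicle traffic genes (14 sites, among them rab11fip1a, arf1l and stxbp3) stood at 0.51 and mitochondrial energy genes (6 sites, among them slc25a20, atp5l and atp5ib) at 0.53. Transfer RNA synthetases (4 sites, among them yars and nars) stood at 0.59. Metabolic enzymes (8 sites) had 0.70 and cell cycle genes (4 sites, among them smc4 and ccnb1l) 0.72. Among the metabolic sites, 1 site in ldhba, a lactate dehydrogenase (ENSDARG00000019644, chromosome 4, position 15898814, minus strand), stayed at 57.4, 62.0, 59.7, 60.2 and 60.2% on 4585 to 12558 reads. The other member in ldhba was at 12.2% at 8 hpf, against 17.2% at 4 hpf, a ratio of 0.71.

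Sites with high levels throughout formed a small set. Only 30 of 597 members were at 50% or more at each of the 5 stages, a count that sets no limit on the change between stages. The highest level at 8 hpf was in retsatl, named for retinol saturase (ENSDARG00000034989, chromosome 9, position 46062656, plus strand), with 94.0, 93.4, 93.8, 94.6 and 94.4% on 1779, 1902, 1960, 1052 and 373 reads. This was also one of the 4 narrowest ranges among sites with at least 100 reads throughout. The others included the cldnd site and a site of 10.3, 12.6, 12.7, 12.5 and 12.9% in tnikb, a kinase of the germinal centre family (ENSDARG00000009031, chromosome 24, position 27338348, minus strand). Steady sites were thus found at both ends of the scale. shmt2, the mitochondrial serine hydroxymethyltransferase (ENSDARG00000068724, chromosome 6, position 59134924, plus strand), was at 93.2, 91.6, 92.7, 88.1 and 70.0%. ENSDARG00000068926 (chromosome 15, position 28398217, plus strand) was at 72.9, 69.9, 70.2, 64.7 and 68.8%. The mitochondrial site (AC024175.17, ENSDARG00000082753, position 1862, plus strand) was at 87.0, 84.3, 87.9, 87.4 and 79.5%. The kind of RNA at that position was not examined, and it is not taken here as an mRNA site. Over all members the median range was 21.2 points, with 28 sites under 5 points and 86 over 50 points.

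Member sites in the same gene had unlike levels, but their ratios lay closer together than those of different genes. Over 103 pairs of members in the same gene, levels at 4 hpf differed by a median of 22.3 points, against 21.5 points over pairs in different genes. The log2 ratio of the level at 8 hpf over 4 hpf differed by a median of 0.38 within genes, against 0.84 between genes. Pairs share sites and are not independent, and nearby sites can share reads, so no test was made. In naa15a, a subunit of an N-terminal acetyltransferase (ENSDARG00000003213, chromosome 14, plus strand), the 3 sites were at 11.5, 18.7 and 44.8% at 8 hpf, against 21.7, 33.8 and 82.8% at 4 hpf. Their ratios were 0.53, 0.55 and 0.54, although the outer sites lie at positions 49064948 and 49089324. The 3 sites of pabpc1a had ratios of 0.32, 0.34 and 0.40, and those of ccdc22 of 0.32, 0.39 and 0.40.

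Not every gene behaved this way. NEO1, a netrin receptor family member (ENSDARG00000075100, chromosome 25, plus strand), had ratios of 0.60, 0.79 and 1.46. sp1, a zinc finger transcription factor (ENSDARG00000088347, chromosome 11, minus strand), had 0.40, 0.61 and 1.35, and plcg1, a phospholipase C of receptor signalling (ENSDARG00000038442, chromosome 23, plus strand), had 0.32, 0.36 and 1.17. In nme2b.2 the 3 ratios were 0.42, 0.52 and 0.60, and in tnikb 0.71, 0.84 and 1.02. These 8 genes are those of highest coverage among the 13 with 3 members.

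**Figure D4:**
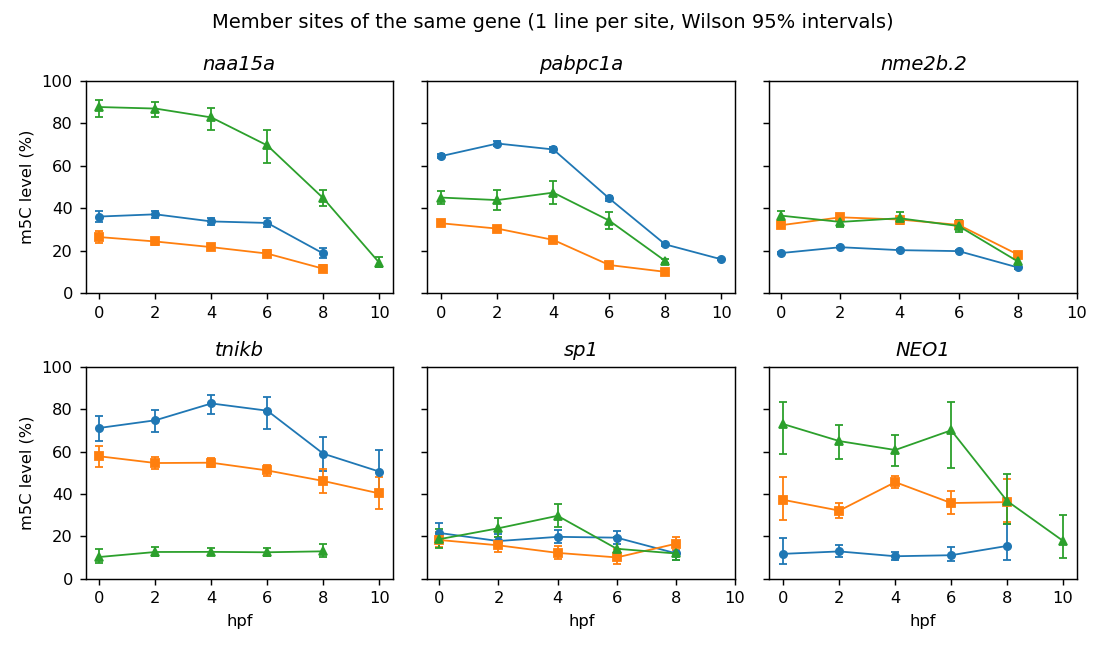
m5C level in percent against the stage in hours post fertilisation for the 3 member sites of 6 genes, 1 line per site, with Wilson 95% intervals. In naa15a and pabpc1a the lines start at different levels and keep their order to 8 hpf, and in sp1 the site that was lowest at 4 hpf, at 12.2%, was at 16.5% at 8 hpf.

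The 10 hpf list was not used to choose the sites. Of the 597, 186 were also listed there (31.2%, Wilson interval 27.6 to 35.0), against 148 of the 655 other sites of the 8 hpf list (22.6%, 19.6 to 26.0). They were 43.5% of the 428 sites listed at 10 hpf. The sites that went on had a median level of 28.5% at 8 hpf, against 15.4% for the 411 that did not, whereas at 4 hpf the medians were 39.1% and 35.7%. The share listed at 10 hpf was larger the higher the level at 8 hpf. It was 10.3% for sites at 10 to 15%, 22.4% at 15 to 20%, 39.8% at 20 to 30%, 61.8% at 30 to 50% and 73.2% at 50% or more. The other sites of the 8 hpf list gave 11.8, 21.5, 29.0, 55.6 and 59.1% in the same classes, with intervals that overlap those of the members. Among members with at least 500 reads at 8 hpf, 37.9% were listed at 10 hpf, against 11.1% of those with 20 to 50 reads. Of the 12 egg and germ line sites, 10 went on.

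Levels of the 186 sites were lower at 10 hpf than at 8 hpf in most cases. Their medians were 18.0% at 10 hpf and 28.5% at 8 hpf, and the median site difference was -5.54 points (-7.83 to -4.20), with 141 sites lower and 44 higher. C and T reads of each site were compared by Fisher's exact test with Benjamini-Hochberg adjustment over all 334 sites shared by both lists. The test treats the pooled reads as independent. Its p-values and calls, here and below, therefore cover counting error only and not variation between libraries or embryos. Of the 186, 76 were called lower (40.9%), beside 28.7% of all 334, which include them. Among the 148 other shared sites, 20 were called lower (13.5%). At 8 hpf the 186 had medians of 198 reads and 28.5%, against 84 reads and 21.4% at the other 148. The part of coverage and starting level in these shares was not tested. A rise was called at 7 of the 186 (3.76%), beside 3.89% of all 334, and 103 of the 186 were not called. With variance beyond counting error added, 57 of the 186 were called lower, beside 74 of all 334 (22.2%). Higher calls then numbered 2 of the 186, beside 6 of all 334 (1.8%). That added variance was set from the 2 and 4 hpf lists, taking the median site there as unchanged, and does not measure replicate spread. As sites under 10% at 10 hpf are not listed, larger falls are missing from this comparison.

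**Figure D5:**
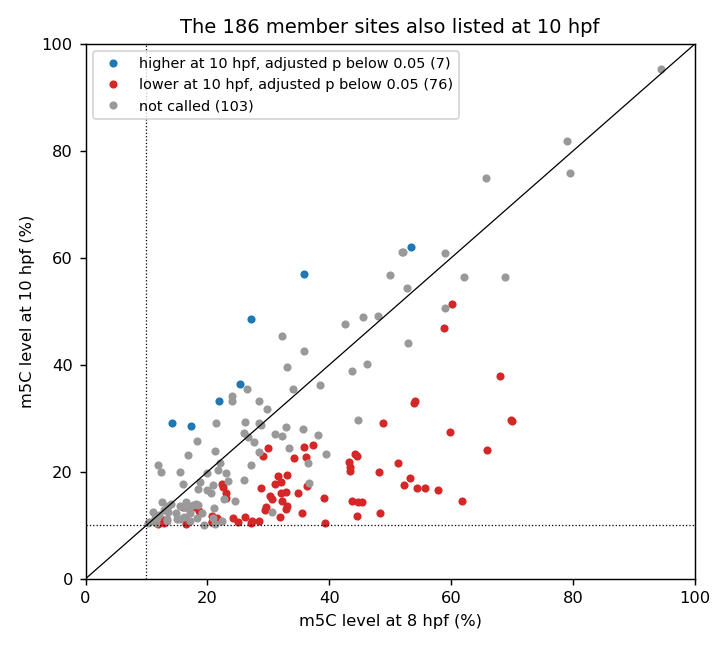
m5C level in percent at 10 hpf (vertical) against 8 hpf (horizontal) at the 186 sites in both lists. Blue points were higher and red points lower at 10 hpf by Fisher's exact test with adjusted p below 0.05, grey points were not called, the line marks equal levels and the dotted lines the 10% minimum. The 76 red points lie below the line at levels from 11.96 to 70.0% at 8 hpf, and the 7 blue points lie above it.

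Only sites at 10% or more at 10 hpf were compared, so the widest falls could only be at sites with high levels at 8 hpf. fbxo45, a substrate-binding subunit of a ubiquitin ligase (ENSDARG00000071492, chromosome 24, position 29349304, minus strand), fell to 14.6% of 96 reads at 10 hpf, against 61.7% of 81 reads at 8 hpf (Fisher's exact test, adjusted p = 6.52e-10). MCC (ENSDARG00000087450, chromosome 5, position 572161, plus strand) fell to 24.0% of 50 reads, against 66.0% of 47 reads (exact test, adjusted p = 0.000228). mpzl2b, an adhesion protein of the immunoglobulin family (ENSDARG00000027345, chromosome 5, position 39560071, minus strand), fell to 16.7% of 114 reads, against 57.9% of 140 reads (exact test, adjusted p = 1.33e-10). At 0, 2, 4 and 6 hpf these 3 sites had been at 74.9 to 83.9%.

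The widest called rises were smaller than these falls. si:dkey-238c7.16 (ENSDARG00000069537, chromosome 18, position 6943203, minus strand) rose to 29.1% of 344 reads at 10 hpf, against 14.2% of 655 reads at 8 hpf (Fisher's exact test, adjusted p = 2.71e-07). A2ML1, of the alpha-2-macroglobulin family of protease inhibitors (ENSDARG00000076366, chromosome 3, position 3939052, minus strand), was at 48.6% of 74 reads, against 27.1% of 70 reads (exact test, adjusted p = 0.0329). tln1, the integrin-binding protein talin (ENSDARG00000005333, chromosome 10, position 8200603, plus strand), was at 56.9% of 65 reads, against 35.8% of 81 reads (exact test, adjusted p = 0.0395). The last 2 missed the threshold once variance beyond counting error was added, with adjusted p of 0.0559 for A2ML1 and 0.0668 for tln1. At h1m, retsatl and the mitochondrial site the levels at 10 hpf were 54.3, 95.3 and 75.9%.

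Beyond 10 hpf, the list of 16 hpf held 2 members, that of 24 hpf held 3 and that of 48 hpf held 8. These counts were not set against list length or against other sites, so no conclusion about the members is drawn from them. Members in all 9 lists were gnb2l1 and the mitochondrial site. gnb2l1 was at 22.6, 14.0, 16.5 and 20.3% at 10, 16, 24 and 48 hpf on 20069 to 38499 reads, and the mitochondrial site was at 75.9, 79.6, 82.1 and 78.6% on 67 to 1457 reads. The 2 neighbouring positions of rps9, a protein of the small ribosomal subunit (ENSDARG00000011405, chromosome 16, positions 34146365 and 34146366, plus strand), were at 12.3 and 18.0% at 8 hpf and at 16.1 and 14.7% at 48 hpf. In between, the first was listed at 24 hpf (11.6% of 33187 reads) and the second at 10 hpf (13.4% of 19838 reads). eif3ea (ENSDARG00000090697, chromosome 16, position 41291574, minus strand) was at 14.3% at 10 hpf and 11.7% at 48 hpf. ints1, a subunit of the Integrator complex (ENSDARG00000059631, chromosome 3, position 43612539, minus strand), was at 10.0% of 50 reads at 48 hpf, which is 5 C reads.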

How the data were processed

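The authors converted RNA with bisulfite, prepared stranded libraries, mapped reads to the Zv9 assembly with HISAT2 and called sites on both replicates together. The submitters' notes also name bcl2fastq 2.17, cutadapt, Trimmomatic and SAMtools. For each stage 1 list was deposited. The deposited coverage is a count of reads with C or T, and the deposited m5C level is a fraction, given here in percent. The p-value that the authors deposited with each site was not used. Reads with close genomic copies may be shared between genes. Level times coverage was whole within 1e-06 at every site, which gave the C and T reads. Coverage is the depth behind each level.

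Samples were grouped by stage. Sites were matched by chromosome, position and strand. Medians have distribution-free 95% intervals and single levels Wilson 95% intervals. The 334 sites in both the 8 and 10 hpf lists were tested by two-sided Fisher's exact test at a threshold of 0.05 after Benjamini-Hochberg adjustment. Pooled counts did not allow a logistic model with replicates. The alternative with beta-binomial variance used a correlation of reads of 0.00232. Python 3.11.15, pandas 2.3.3 and scipy 1.17.1 were used, and the test code was run on simulated reads. False calls were checked there only for reads without variance beyond counting error. That check cannot show how the calls would hold across libraries. The table of gene names held 425 of the 507 gene IDs (83.8%).

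The members, gene lists and alternatives were chosen with earlier results of these data known, and the list patterns were trimmed after gene symbols were seen. Sites named were the 6 of highest summed coverage. Among members with at least 100 reads at each stage up to 8 hpf, the 6 largest losses and gains at 8 relative to 4 hpf, the 4 highest at 8 hpf and the 4 narrowest ranges were added. All sites listed after 10 hpf, the 3 widest called rises and falls at 10 hpf, the 8 deepest genes with 3 members, the sites nearest the minima and up to 3 sites per gene list were named too. ZP2, in capitals, was not caught by the egg list. Some sites that the rule selects are not reported here.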

Additional observations from a re-analysis of the deposited data

How the results depend on the processing

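With at least 100 reads at each stage 282 sites remained, and with a level of at least 20% at each stage 217. The limit on the level gave medians of 53.1, 52.1, 52.6, 46.1 and 32.0% from 0 to 8 hpf, since it leaves out low levels by construction. Means weighted by coverage were 42.7, 42.8, 34.8 and 19.1% at 2, 4, 6 and 8 hpf. At 8 hpf the median was 17.2% with at least 100 reads and 17.3% with at least 50. In each of these settings the median at 8 hpf was below that at 4 hpf. Among sites of at least 20% at 8 hpf, 52.7% were listed at 10 hpf and the median difference at 10 hpf was -10.2 points. With beta-binomial variance 2 sites were called higher at 10 hpf, in place of 7, and A2ML1 and tln1 lost their calls. The other 29 summary values kept their direction and size class. No paired analysis was possible because every list pools both libraries of its stage, so leaving out each replicate and a replicate block were not run.

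Levels below 10% and sites under 20 reads are not in the lists, so the falls described are those of sites that stayed above both limits. A median coverage of 165 reads at 8 hpf limits the precision of single levels. Differences between stages include any variation between clutches, libraries and depth, whose part was not tested.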
